A study of Arabidopsis thaliana with 21 samples.

Results

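Transcript levels of wild-type Arabidopsis thaliana seeds after 24 h in water were set against those of dry seeds, 3 libraries in each group and 6 of the 21 libraries of the series. The libraries were chosen by their titles, which name water and 24 h or dry seeds, and the question was which mRNAs of the dry seed are kept, lost or regained over 24 h in water alone. Both groups carry the same labels, wild type for genotype, seed for tissue, no treatment, long days and the same developmental stage, so that the titles alone tell them apart. A further part of the dry titles could not be interpreted. The accession, seed lot, dormancy state and light during imbibition are not given in the sources used here. Water libraries of 6 and 16 h, 3 each, were used to follow each mRNA between the end points, and the ethylene libraries, which are the main subject of the series, were not used.

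A mature Arabidopsis seed holds mRNAs made during maturation on the mother plant, among them those of storage proteins, oil-body proteins, late embryogenesis abundant (LEA) proteins and small heat shock proteins. Once the seed takes up water, stored mRNA is broken down while transcription starts again. Abscisic acid maintains the maturation programme and dormancy, and gibberellin promotes germination. Poly(A) RNA counts do not tell a stored molecule from a newly made one, so "kept" and "regained" below describe levels only.

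Libraries of water 24 h held 12154732 to 20521092 reads and those of dry seeds 19172969 to 19829876, with 94.5 to 96.2% and 94.3 to 94.9% of them on genes. Over 11264 genes, log-scale correlations were 0.994 to 0.996 within water 24 h, 0.992 to 0.993 within dry seeds and 0.509 to 0.533 between the groups. Although the replicates are described as biological, their seed lots are not given in the sources used here, and the p-values then measure only the scatter of these libraries, which could be technical. In bulk seeds, fewer cells of a type and less RNA per cell cannot be told apart. One library stood apart: in replicate 3 of water 24 h, 13 genes, 10 of them for light-harvesting proteins, were at least 5-fold above both other libraries of the group and over 5 CPM, and in each of the other 5 libraries no gene was. The main results that rest on this library are given with and without it.

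Marker genes of seeds were high in all 6 libraries: cruciferins CRA1 and CRU3, the oleosin OLEO1, the LEA protein EM6 and the seed vacuolar aquaporin TIP3;1 had at least 1175 CPM (reads of a gene per library total, in the usual CPM unit, with totals scaled by edgeR's TMM factors) in every one. Of 6 endosperm markers 3 passed the filter on low counts, and their sum was 4611 to 5003 CPM in water 24 h and 21105 to 25132 CPM in dry seeds, nearly all of it EPR1, an extensin-like gene, while ZOU, PHE1 and MEA had 0 or 1 read in each group. The other tested members did not fall with EPR1. MAN7 was called higher, with a mean of 50.5 CPM in water 24 h and 3.52 CPM in dry seeds. NCED6 was not called, at 4.16 CPM in water 24 h and 5.09 CPM in dry seeds. Of 11 embryo markers 9 were tested, with sums of 352 to 381 CPM in water 24 h and 156 to 178 CPM in dry seeds. The 3 tested of 10 seed coat markers summed to 10.6 to 11.2 CPM in water 24 h and 7.5996 to 8.35 CPM in dry seeds. The part of a changed tissue make-up in the results below was not tested.

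Most of the transcriptome differed between the end points. Of 17782 genes tested, edgeR's quasi-likelihood test called 86.7%: 8330 were higher (46.8%) and 7089 lower (39.9%) in water 24 h than in dry seeds at a false discovery rate of 0.05, and 5568 (31.3%) and 4144 (23.3%) at least 2-fold. The 2 groups did not overlap for 86.2% of genes. The median log2 change was 0.14. These changes are relative to the TMM scale, on which the water 24 h libraries have factors of 1.198 to 1.212 and the dry ones 0.565 to 0.596. With library size alone as the scale the median was 1.204, and 79.7% of the called genes were higher instead of 54.0%. The amount of RNA per seed was not measured.

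Of the genes tested, 9641 had a dry mean of at least 10 CPM and are called dry-seed mRNAs here. The classes below were set by the values of the comparison itself, so their sizes are descriptions. An mRNA was kept if the 95% interval of its log2 change lay within 2-fold of dry seeds, lost or raised if it was called and at least 2-fold lower or higher, and otherwise undecided. By this rule 4692 (48.7%) were kept, 3190 (33.1%) lost, 1070 (11.1%) raised and 689 (7.15%) undecided. The kept mRNAs fell into 3684 steady ones, which were not called 2-fold away from dry seeds at 6 or 16 h either, 467 regained ones, which had been called at least 2-fold lower at 6 or 16 h and were called higher again at 24 h, and 541 with another course. At the edge of the dry minimum the nearest genes had 10.0009 CPM inside and 9.997 CPM outside, and the upper interval limits nearest to the 2-fold bound were 0.9998 inside and 1.0006 outside on the log2 scale. Medians of the dry level were 33.0 CPM for steady, 41.0 CPM for regained, 71.0 CPM for lost and 23.5 CPM for raised mRNAs.

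In reads, the lost class was far larger than in genes. The share of gene reads, which needs no scaling factor, was 23.9, 22.9 and 23.7% for lost mRNAs in the 3 water 24 h libraries, against 73.3, 73.2 and 73.2% in the dry ones. Kept mRNAs took 41.2, 41.1 and 42.0% in water 24 h, against 20.0% in each dry library, and raised mRNAs 21.1, 21.7 and 20.7% in water 24 h against 2.52 to 2.57% in dry seeds. Genes under the dry minimum, which could be neither kept nor lost, took 7.75 to 8.28% of the water 24 h reads and 1.27 to 1.37% of the dry reads. The replicates of a group lay within about 1 percentage point of each other. These same libraries set the classes on the TMM scale, so the gap between the groups in the lost and raised shares is a description only. Most of the difference in the lost share was present at 6 h, when lost mRNAs held 35.2 to 35.7%, and at 16 h they held 24.4 to 26.5%.

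**Figure D1:**
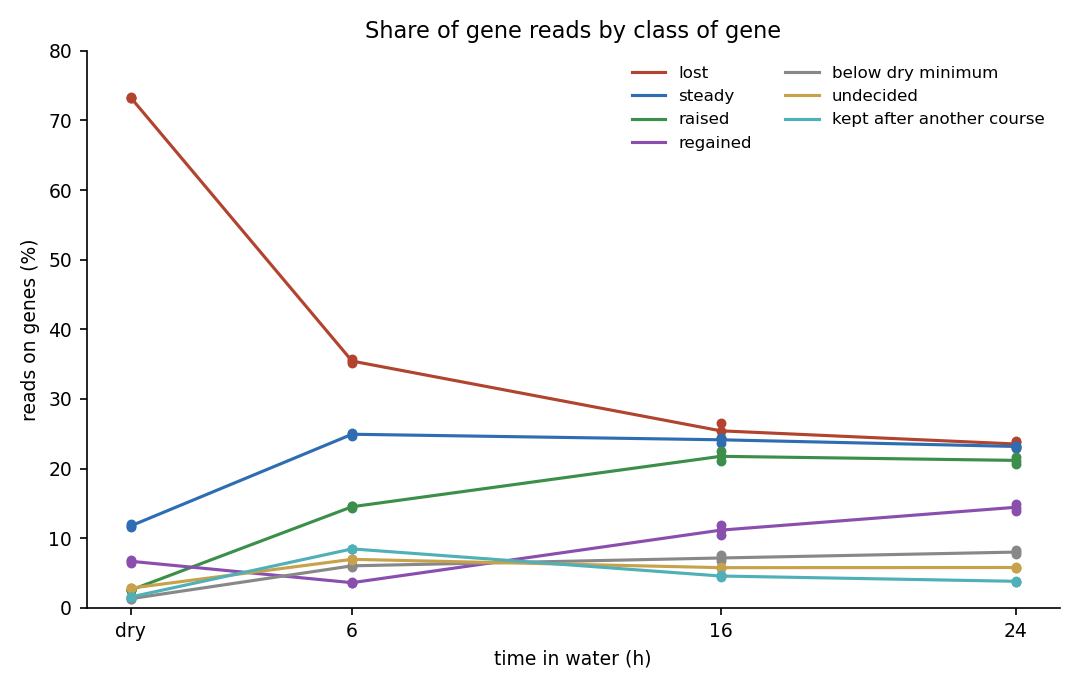
Share of gene reads (%) taken by each class of gene, against time in water (h), with dry seeds at the left; points are single libraries, 3 per time, and lines join the means. Lost mRNAs held 73.2 to 73.3% of dry-seed reads and 22.9 to 23.9% at 24 h, while regained mRNAs held 3.56 to 3.67% at 6 h and 13.96 to 14.94% at 24 h.

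The regained class held 467 mRNAs that dipped and came back. Of these, 451 were at least 2-fold lower than dry seeds at 6 h and 63 at 16 h, 16 of them at 16 h only; among all genes tested, 19.9% were called 2-fold lower at 6 h and 42.4% higher at 24 h than at 6 h. The median log2 change from dry seeds was -1.42 at 6 h, -0.55 at 16 h and -0.41 at 24 h. At 24 h, 315 were called lower than dry seeds, 70 higher and 82 neither, so on the TMM scale most of them returned to within 2-fold but not to the dry level. These values chose the class and are given as a description.

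CRA1, a 12S globulin (cruciferin) and thus a storage protein of the seed, showed the regained course at a high level. Its mRNA had 64526, 62126 and 68920.0 CPM in the water 24 h libraries, against 41881, 36888 and 43057 CPM in dry seeds, and 7752, 7204 and 7277 CPM at 6 h. All 3 water 24 h libraries lay above all 3 dry ones, and those of 6 h lay below both. The log2 change from dry seeds to 24 h was 0.68 ± 0.098 (SE; adjusted p = 3.80e-07, edgeR's quasi-likelihood test), and the level at 24 h was 8.796-fold that at 6 h. In reads, CRA1 alone made up 7.79, 7.52 and 8.25% of gene reads in water 24 h, against 2.396, 2.198 and 2.433% in dry seeds and 0.851 to 0.908% at 6 h.

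CRU3, another cruciferin, had 22511, 21978 and 23674 CPM in water 24 h, against 35790.0, 33251 and 37305 CPM in dry seeds, with a mean of 7763 CPM at 6 h and 17379 CPM at 16 h. It came back less far than CRA1: its log2 change of -0.64 ± 0.092 at 24 h (adjusted p = 3.71e-07, edgeR's quasi-likelihood test) was a decrease on the TMM scale and turned to 0.42 with library size alone. As a share of gene reads CRU3 held 2.72, 2.66 and 2.83% in water 24 h, against 2.05, 1.98 and 2.11% in dry seeds. Without these 2 genes the regained class still held 3.77 to 3.90% of reads in water 24 h, against 2.287 to 2.304% in dry seeds and 1.81 to 1.84% at 6 h.

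The other members of the storage and oil-body list were lost. All 16 were tested, and 14 were called at least 2-fold lower, beside 23.3% of all genes. CRA1 and CRU3 were the 2 regained. The list's median log2 change was -3.17, beside 0.14 for all genes, and -2.11 with library size alone. CRU2, the remaining cruciferin of the list, averaged 773 CPM in water 24 h and 13549.9 CPM in dry seeds, 17.5-fold lower. OLEO1, the main oleosin of seed oil bodies, had 2542, 2271 and 2533 CPM in water 24 h, against 22959, 21674 and 22220.2 CPM in dry seeds, a log2 change of -3.19 ± 0.088 (adjusted p = 3.06e-22, edgeR's quasi-likelihood test). Among the 2S albumins, SESA4 and SESA3 changed most, by -4.43 and -4.05 on the log2 scale, and SESA2 least, by -1.39; counts of these neighbouring, similar genes are uncertain. PAP85, a vicilin-like globulin, averaged 5657 CPM in water 24 h and 45548 CPM in dry seeds, and OLEO4 683 CPM in water 24 h and 12653 CPM in dry seeds. Together the 14 lost members took 2.03 to 2.24% of gene reads in water 24 h and 9.47 to 9.55% in dry seeds.

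Upstream sequences of 2 regained and 2 lost genes of these lists are shown because the genes share a seed-specific role and yet differ in their course. Each is the 250 bases before the annotated gene start in RefSeq TAIR10.1, 5′ to 3′ on the gene's strand. Capitals mark ACGTG, the core of the abscisic acid response element, and CATGCA, the RY element bound by B3 factors such as ABI3, on either strand; a CACGTG carries the core on both strands. The CRA1 window lies at chr5:17758337-17758586 on the minus strand, that of CRU3 at chr4:14087306-14087555 on the plus strand, that of EM6 at chr2:16780369-16780618 on the minus strand and that of OLEO1 at chr4:12900180-12900429 on the plus strand.
CRA1: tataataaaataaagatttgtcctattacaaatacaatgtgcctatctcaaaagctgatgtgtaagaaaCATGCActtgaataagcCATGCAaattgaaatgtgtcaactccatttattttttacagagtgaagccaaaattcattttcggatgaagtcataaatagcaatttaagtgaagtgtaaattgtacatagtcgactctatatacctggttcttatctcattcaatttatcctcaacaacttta
CRU3: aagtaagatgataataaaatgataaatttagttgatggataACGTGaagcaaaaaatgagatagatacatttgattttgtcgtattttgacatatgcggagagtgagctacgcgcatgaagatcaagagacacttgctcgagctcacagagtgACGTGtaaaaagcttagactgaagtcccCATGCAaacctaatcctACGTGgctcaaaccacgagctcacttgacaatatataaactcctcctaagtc
EM6: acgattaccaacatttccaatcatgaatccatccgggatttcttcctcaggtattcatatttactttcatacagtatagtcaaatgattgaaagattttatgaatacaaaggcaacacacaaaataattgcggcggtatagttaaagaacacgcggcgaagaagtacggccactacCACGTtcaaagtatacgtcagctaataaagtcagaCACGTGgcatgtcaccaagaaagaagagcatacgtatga
OLEO1: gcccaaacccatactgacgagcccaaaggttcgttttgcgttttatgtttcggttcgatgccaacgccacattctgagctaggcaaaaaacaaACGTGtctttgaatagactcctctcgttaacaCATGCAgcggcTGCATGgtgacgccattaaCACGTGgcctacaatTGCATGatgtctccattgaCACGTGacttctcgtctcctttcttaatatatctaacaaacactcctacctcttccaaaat
Counted on both strands, CRA1 held 0 ACGTG and 2 CATGCA, CRU3 held 3 and 1, EM6 held 3 and 0 and OLEO1 held 5 and 3. The regained CRA1 and CRU3 thus did not share an ACGTG count, and the lost OLEO1 held more of both motifs than either. A match of letters is no evidence of a bound site.

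Over the classes, ACGTG was found in the same window of 33.0% of regained, 30.9% of lost, 20.4% of steady and 19.8% of raised genes, beside 24.7% of dry-seed mRNAs, 23.3% of the genes tested and 22.9% of 27443 protein-coding promoters. CACGTG, which contains ACGTG, was present in 14.1% of regained and 12.9% of lost genes, against 6.46% of steady and 5.05% of raised genes, beside 8.91% of dry-seed mRNAs, 7.89% of the genes tested and 6.49% of all promoters. CATGCA was found in 7.71% of regained, 8.52% of lost, 5.92% of steady and 6.45% of raised genes, beside 6.83% of dry-seed mRNAs, 7.25% of the genes tested and 8.43% of all promoters. TGGGCC, the site II element, was found in 29.7% of raised genes, 21.7% of steady, 19.1% of regained and 17.2% of lost genes, beside 21.0% of dry-seed mRNAs, 18.1% of the genes tested and 13.7% of all promoters. AACCCTA, the telo box, occurred in 10.6% of raised genes, 5.89% of steady, 4.28% of regained and 3.74% of lost genes, beside 5.68% of dry-seed mRNAs, 5.83% of the genes tested and 6.56% of all promoters. GAANNTT, a short piece of the heat shock element with N for any base, lay between 61.0 and 64.1% in these 4 classes, beside 63.3% of dry-seed mRNAs; GATAAG, the I-box, lay between 11.5 and 14.6%, beside 12.8% of dry-seed mRNAs. These shares carry no test.

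GSTF2, a glutathione S-transferase, was another regained mRNA and had 704, 731 and 689.9 CPM in water 24 h, against 537, 498 and 539.9 CPM in dry seeds and a mean of 159 CPM at 6 h. MFT, which encodes a PEBP-family regulator of germination and of the abscisic acid response, had 82.8, 75.5 and 74.9 CPM in water 24 h, against 55.4, 45.3 and 51.4 CPM in dry seeds and 10.8 CPM at 6 h. For both genes every water 24 h library lay above every dry one, with log2 changes of 0.43 ± 0.057 and 0.61 ± 0.077 (adjusted p = 1.10e-07 and 4.06e-08, edgeR's quasi-likelihood test). With unstranded counts the change of GSTF2 was 0.23 and not called. Of the 8 regained mRNAs with the highest dry CPM, which does not rank genes per length, the other 5 ended lower than dry seeds on the TMM scale: DI19, a drought-induced zinc finger protein (-0.36), CBSX3 (-0.59), DYL1, a dormancy-associated protein (-0.801), SSR16, an organellar ribosomal protein (-0.52), and DJ1A (-0.84). All 5 of these log2 changes turned positive with library size alone, at 0.22 to 0.70.

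Other regained members of the lists covered regulators and metabolism. EEL, a bZIP factor related to ABI5, averaged 197 CPM in water 24 h and 126 CPM in dry seeds, and 16.6 CPM at 6 h. ABF4, a bZIP factor of the abscisic acid response, averaged 68.96 CPM in water 24 h and 78.9 CPM in dry seeds, and 12.02 CPM at 6 h. The receptor gene PYL13 had 10.9 CPM in water 24 h, 12.9 CPM in dry seeds and 0.319 CPM at 6 h. Of the clock genes, PRR3 and RVE8 were at 30.6 and 13.5 CPM at 6 h, and at 82.4 and 57.5 CPM in water 24 h against 108 and 94.4 CPM in dry seeds. TZF5 and OZF1, tandem zinc finger proteins of the mRNA decay list, were at 66.1 and 23.7 CPM in water 24 h, against 72.2 and 25.98 CPM in dry seeds, after 14.9 and 4.82 CPM at 6 h. DHAR1, a dehydroascorbate reductase, returned to 174 CPM in water 24 h, against 181 CPM in dry seeds, after 46.99 CPM at 6 h.

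**Figure D2:**
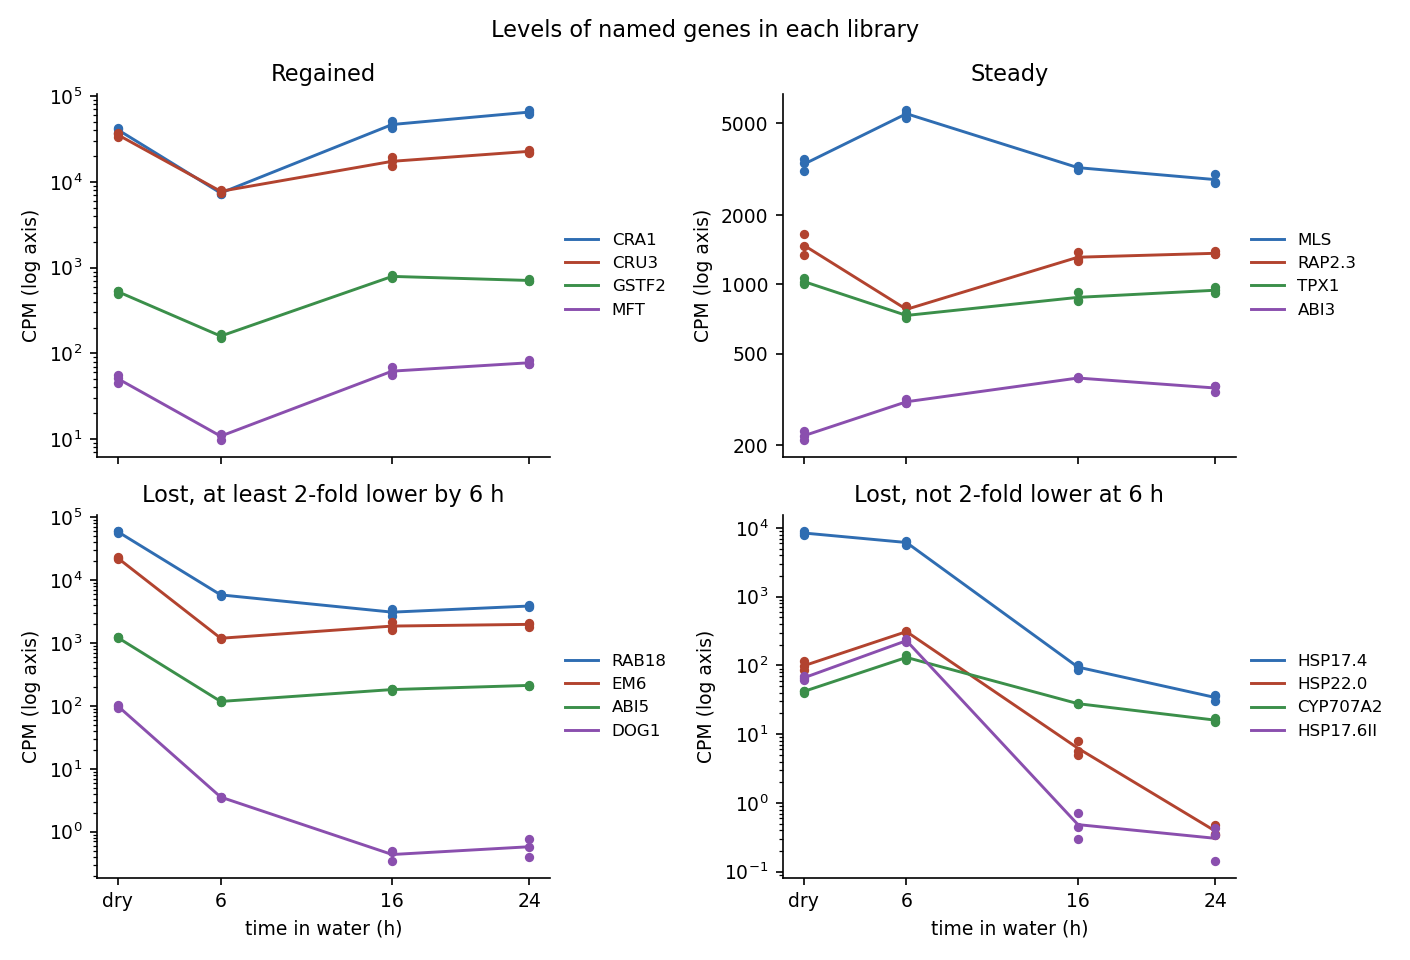
Levels of 16 named genes (CPM, log axis) against time in water (h), with dry seeds at the left; points are single libraries, 3 per time, lines join the means. CRA1 fell to 7411 CPM at 6 h and stood at 65190.4 CPM at 24 h, whereas RAB18 averaged 5812 CPM at 6 h and 3866 CPM at 24 h, and HSP17.4 6130.2 CPM at 6 h and 94.5 CPM at 16 h.

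Steady mRNAs made up 3684 of the 4692 kept ones. Their median log2 change from dry seeds was 0.04 at 6 h, -0.03 at 16 h and -0.10 at 24 h, and within the 2-fold band 1150 were called higher, 1669 lower and 865 neither. In reads their share was 23.0 to 23.3% in water 24 h and 11.66 to 11.97% in dry seeds, so that a level called steady on the TMM scale is a larger part of the reads. MLS, malate synthase of the glyoxylate cycle, had 2767, 3008 and 2785 CPM in water 24 h, against 3359, 3117 and 3493 CPM in dry seeds, with a log2 change of -0.22 ± 0.068 that turned to 0.84 with library size alone. RAP2.3, an ethylene response factor of group VII, had 1390.4, 1351 and 1355 CPM in water 24 h, against 1462, 1338 and 1648 CPM in dry seeds; the groups overlapped and its change of -0.12 (0.95 with library size alone) was not called (adjusted p = 0.105, edgeR's quasi-likelihood test). TPX1, a peroxiredoxin, had 971, 914 and 946 CPM in water 24 h, against 1062, 1002 and 1028 CPM in dry seeds.

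The remaining steady mRNAs among the 8 with the highest dry CPM were APA1, a vacuolar aspartic protease, VEP1, CLPC1, a chloroplast chaperone, MPK17, a MAP kinase, and DAA1, an ATPase, with log2 changes of -0.83, -0.41, -0.495, -0.71 and -0.07, all positive with library size alone. Of the regulators, ABI3, the B3 factor at the head of the maturation programme, had 339.8, 362 and 364 CPM in water 24 h, against 219, 211 and 231 CPM in dry seeds, and was called higher by 0.69 ± 0.053 on the log2 scale (adjusted p = 2.30e-12, edgeR's quasi-likelihood test). Of 21 tested members of the mRNA decay and mRNP list 18 were dry-seed mRNAs, and 10 of these were steady, beside 38.2% of all dry-seed mRNAs. Among them were the decapping factors DCP5, VCS and VCR, the exonucleases XRN4 and XRN3, and UPF1 of nonsense-mediated decay. DCP5 averaged 229 CPM in water 24 h and 217 CPM in dry seeds, and UPF1 115 CPM in water 24 h and 107 CPM in dry seeds. The list had 6 members called higher and 10 lower, beside 46.8% and 39.9% of all genes. Its median of -0.14 turned to 0.92 with library size alone (15 higher and 4 lower). In the ethylene list 13 of 17 tested were dry-seed mRNAs, and 5 of these were steady, near the 38.2% of all dry-seed mRNAs. They were ETR1, CTR1, EIN2, EIN3 and RTE1, of the receptor and signal chain. Of the 17 tested, 7 were called higher and 9 lower, beside 46.8% and 39.9% of all genes. With library size alone 12 were higher and 4 lower. ACS2 and ACS6 were lost, with 14.6 and 0.430 CPM in water 24 h, against 135 and 18.7 CPM in dry seeds. ERS1 and ACO1 were called higher, with 18.0 and 25.1 CPM in water 24 h, against 0.500 and 0.0929 CPM in dry seeds.

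Lost mRNAs numbered 3190. At 6 h 1888 of them (59.2%) were already called at least 2-fold lower than dry seeds, 1040 followed at 16 h and 262 at 24 h. Their median log2 change was -1.27 at 6 h, -1.79 at 16 h and -1.84 at 24 h. Between 6 and 24 h 647 were called higher and 2187 lower, while 42.4% of all genes tested were called higher and 40.7% lower. At least 2-fold, 271 were higher and 1140 lower, so that part of the lost class rose again without coming back to within 2-fold of dry seeds.

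The LEA list was mostly lost. LEA proteins accumulate in late maturation and protect cells during drying. All 19 members were tested, 15 were called lower, 14 of them at least 2-fold, and 4 higher. Among all genes 39.9% were called lower, 23.3% at least 2-fold lower and 46.8% higher. The list's median log2 change was -2.73, and -1.66 with library size alone. RAB18, a dehydrin, had 4009.98, 3788 and 3799 CPM in water 24 h, against 59769.9, 56973 and 59262 CPM in dry seeds, 15.2-fold lower (log2 change -3.92 ± 0.098; adjusted p = 3.52e-23, edgeR's quasi-likelihood test). EM6, a group 1 LEA protein, had 2085, 1811 and 2033 CPM in water 24 h, against 21925, 22266 and 22836 CPM in dry seeds, after a mean of 1188 CPM at 6 h. XERO2, another dehydrin, fell furthest, to 4.04, 3.98 and 5.13 CPM in water 24 h, against 2103, 1954 and 2052 CPM in dry seeds. In water the list took 1.85 to 1.99% of gene reads at 24 h, against 7.92 to 8.09% in dry seeds.

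Not every LEA gene followed. SAG21 had 145, 138 and 117 CPM in water 24 h, against 5.39, 6.77 and 5.51 CPM in dry seeds, and COR47, a dehydrin of the cold response, 16.5, 18.96 and 13.2 CPM in water 24 h against 0.464, 1.11 and 0.18999 CPM in dry seeds. Both lay under the dry minimum and were higher in water 24 h by 4.49 ± 0.13 and 4.76 ± 0.32 on the log2 scale, ERD10 and ERD14 by 2.19 and 0.62. ECP63 was the 1 dry-seed LEA mRNA that was undecided, with 904 CPM in water 24 h and 1649 CPM in dry seeds.

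Heat shock genes took another course. Of the 13 lost members of this list, 6 were called at least 2-fold higher than dry seeds at 6 h and 3 at least 2-fold lower, while all 14 lost LEA and all 14 lost storage mRNAs were at least 2-fold lower by then; among all genes tested, 24.3% were called 2-fold higher at 6 h. Of 17 heat shock members tested at 24 h, 16 were at least 2-fold lower, beside 23.3% of all genes, and HSFA3 was called higher, with a median log2 change of -5.09, and -4.03 with library size alone. The groups overlapped for HSFA3 (adjusted p = 0.0359, edgeR's quasi-likelihood test), which lost its call with DESeq2 and without water 24 h replicate 1 or 2 or dry replicate 2 or 3, with log2 changes of 0.82 to 1.27. HSP17.4, a small cytosolic heat shock protein stored in dry seeds, had 35.4, 30.3 and 36.8 CPM in water 24 h, against 7879.9, 8950.5 and 8459 CPM in dry seeds, but still 6130.2 CPM at 6 h and 94.5 CPM at 16 h. HSP22.0, an endoplasmic reticulum form, averaged 98.6 CPM in dry seeds, 310.3 CPM at 6 h, 6.24 CPM at 16 h and 0.391 CPM at 24 h. HSP70 likewise averaged 2454 CPM in dry seeds, 7690.1 CPM at 6 h and 74.4 CPM at 24 h. HSP21 of the plastid had 1 read in the 3 water 24 h libraries and 717 in the dry ones, a ratio per scaled read of 7.40e-04 with a 95% counting interval of 1.87e-05 to 0.00414, which covers counting error only. HSFA9, the heat shock factor specific to seeds, did not share the late course: it averaged 15.3 CPM in water 24 h and 561 CPM in dry seeds, and was at 26.5 CPM by 6 h.

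The largest decreases by the naming rule held, beside XERO2 and the heat shock genes HSP17.4, HSP22.0, HSP21 and HSP17.6II, 5 genes of other kinds. MAN1, an endo-beta-mannanase, had 0.0709, 0.0866 and 0.129 CPM in water 24 h, against 99.6, 95.8 and 106 CPM in dry seeds. PR4, a chitin-binding defence protein, had 0.142, 0.216 and 0.345 CPM in water 24 h, against 133, 122 and 133 CPM in dry seeds. SQE6, CCD7, a carotenoid cleavage enzyme of strigolactone synthesis, and AIG2L changed by -8.57, -7.91 and -7.696 on the log2 scale.

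Of the 12 named genes with the highest dry CPM, which ranks reads and not molecules, 2 were the regained cruciferins and 10 were lost. Among all dry-seed mRNAs 33.1% were lost. The 12 were picked by dry values that also set the classes, which favours the lost class, so this count is a description. Beside RAB18, PAP85, SESA5, OLEO1, EM6 and SESA3 the 10 lost genes were LCR67, a defensin, BGLU19, a beta-glucosidase, XTH25, a xyloglucan transglycosylase, and EPR1. LCR67 averaged 5155 CPM in water 24 h and 43550.5 CPM in dry seeds, and BGLU19 1732 CPM in water 24 h and 24550.3 CPM in dry seeds. XTH25 averaged 243 CPM in water 24 h and 14629 CPM in dry seeds, and EPR1 4799.8 CPM in water 24 h and 23280.4 CPM in dry seeds. Their folds ranged from 4.85-fold lower for EPR1 to 60.2-fold lower for XTH25.

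Factors of the maturation programme split. Of 17 tested of 19, 6 were called higher and 9 lower, beside 46.8% and 39.9% of all genes. The median of -0.20 turned to 0.87 with library size alone (10 higher and 6 lower). ABI5, the bZIP factor that maintains the embryonic state under abscisic acid, had 209, 217 and 209 CPM in water 24 h, against 1199, 1228 and 1225 CPM in dry seeds, a log2 change of -2.52 ± 0.056 (adjusted p = 3.08e-24, edgeR's quasi-likelihood test). It had been lower still at 6 h, at 118 CPM. FUS3, BZIP53 and BZIP10 were lost too, with changes of -2.06, -1.58 and -1.704. ABI4, an AP2 factor, had 21.8, 21.5 and 21.8 CPM in water 24 h, against 1.21, 0.557 and 1.23 CPM in dry seeds, after 83.4 CPM at 6 h. ABF3 had 162 reads in water 24 h and 0 in dry seeds, at least 28.7-fold higher against a floor of 3 reads over the group.

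Dormancy regulators moved both ways, 8 higher and 8 lower of 16 tested, beside 46.8% and 39.9% of all genes. Their median of -0.11 turned to 0.95 with library size alone. DOG1, which sets seed dormancy, had 0.567, 0.3895 and 0.775 CPM in water 24 h, against 101, 93.7 and 104 CPM in dry seeds, 169.8-fold lower (adjusted p = 8.77e-27, edgeR's quasi-likelihood test), and averaged 3.55 CPM at 6 h. Its relative AT4G18690 had 97.4, 90.2 and 88.9 CPM in water 24 h, against 2.14, 1.86 and 2.28 CPM in dry seeds, most of the increase after 6 h (1.14 CPM), while another relative, AT4G18650, was steady at 47.6 CPM in water 24 h and 81.2 CPM in dry seeds. SOM, a zinc finger repressor of germination in the dark, was lost (523 CPM in water 24 h, 1722 CPM in dry seeds), as were RVE2 (12.4 CPM in water 24 h, 86.2 CPM in dry seeds) and RDO2. PIF1 and PIF6, phytochrome-interacting factors, were raised, to 104 and 362 CPM in water 24 h, against 24.9 and 102 CPM in dry seeds.

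Of 13 tested genes of abscisic acid synthesis and breakdown 2 were called higher and 10 lower, beside 46.8% and 39.9% of all genes, with a median of -1.22. With library size alone 5 were higher and 6 lower, with a median of -0.16. NCED3 and NCED2, dioxygenases of the regulated step of synthesis, averaged 0.0668 and 0.0721 CPM in water 24 h, against 6.27 and 7.45 CPM in dry seeds. NCED9 was steady at 8.72, 9.87 and 9.05 CPM in water 24 h, against 12.3, 11.97 and 16.1 CPM in dry seeds, with a change of -0.53 that turned to 0.53 with library size alone. ABA1, zeaxanthin epoxidase, was lost (118 CPM in water 24 h, 595 CPM in dry seeds). CYP707A2, the hydroxylase that breaks down abscisic acid in imbibed seeds, had 15.8, 15.2 and 17.02 CPM in water 24 h, against 39.9, 42.2 and 43.03 CPM in dry seeds, although it had stood at 131 CPM at 6 h. CYP707A3 was called higher, at 3.76, 3.77 and 3.27 CPM in water 24 h and 2.32, 0.928 and 1.61 CPM in dry seeds. So was ABA4, a synthesis gene, at 14.2, 14.8 and 14.4 CPM in water 24 h and 3.06, 2.32 and 1.04 CPM in dry seeds.

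Receptors, phosphatases and kinases of the abscisic acid signal were lower in 17 of 25 tested and higher in 7, with 11 lost. Among all genes 39.9% were lower and 46.8% higher. The list's median of -0.69 turned to 0.37 with library size alone (13 higher and 10 lower). The receptor genes went in opposite directions. PYL12 had 1 read in the water 24 h libraries and 2339 in the dry ones (ratio 2.27e-04, interval 5.74e-06 to 0.00127), and PYL11 3 and 1002 (ratio 0.00159, interval 3.27e-04 to 0.00466). PYL4 had 36.4, 36.01 and 29.99 CPM in water 24 h, against 0.371, 0.0928 and 0.09499 CPM in dry seeds, and PYL6 3.97, 4.804 and 4.01 CPM in water 24 h against 0.279, 0.0928 and 0 CPM in dry seeds. Among the phosphatases of the pathway, AHG1, which acts in seeds, averaged 106 CPM in water 24 h and 1285 CPM in dry seeds, and ABI2 6.54 CPM in water 24 h and 191 CPM in dry seeds, whereas HAI2 was steady (115 CPM in water 24 h, 141 CPM in dry seeds). Of the kinases, SNRK2.2 was steady, SNRK2.3 lost and SNRK2.6 higher, at 5.38 CPM in water 24 h and 0.777 CPM in dry seeds.

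Of 12 tested of 19 members of gibberellin synthesis and inactivation, 8 were called higher and 4 lower, beside 46.8% and 39.9% of all genes, with a median of 2.73. Of the 12, 7 lay under the dry minimum, where genes near 0 in dry seeds passed the filter only through water libraries. With library size alone 11 were higher and 1 lower. GA20OX3, a 20-oxidase of the late steps, had 393, 402 and 385 CPM in water 24 h, against 1.3002, 1.76 and 0.855 CPM in dry seeds, 299-fold higher (adjusted p = 5.56e-28, edgeR's quasi-likelihood test). GA3OX1, which makes active gibberellin, had 229 reads in water 24 h and 1 in dry seeds, a ratio per scaled read of 122 with a 95% counting interval of 21.6 to 4821, and GA3OX2 89 and 0, at least 15.7-fold higher. Of the earlier enzymes, GA3, KAO1 and KAO2 were steady and GA2 regained, while GA1 had 0 reads in dry seeds and 1.05 CPM in water 24 h. The inactivating oxidases parted, with GA2OX6 at 0.142, 0.173 and 0.129 CPM in water 24 h, against 14.7, 13.6 and 13.5 CPM in dry seeds, and GA2OX2 at 17.7, 20.1 and 18.1 CPM in water 24 h against 6.32, 6.12 and 5.51 CPM in dry seeds.

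In gibberellin signalling 10 of 15 tested were higher and 5 lower, beside 46.8% and 39.9% of all genes, with a median of 3.62. Of the 15, 7 lay under the dry minimum, with the same limit. The DELLA repressor genes GAI, RGA1, RGL1 and RGL2 were higher, RGL2 at 227 CPM in water 24 h and 10.8 CPM in dry seeds, and RGL3 was not among them. The receptors GID1A and GID1C were lost, with changes of -1.32 and -1.41, and GID1B was higher, at 1.29 CPM in water 24 h and 0.0928 CPM in dry seeds. Of the small GASA proteins, GASA6 had 27.6, 31.6 and 24.3 CPM in water 24 h, against 0.371, 0.0928 and 0.09499 CPM in dry seeds, and GASA2 58.2, 48.04 and 62.9 CPM in water 24 h against 1141, 1142 and 1069 CPM in dry seeds.

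**Figure D3:**
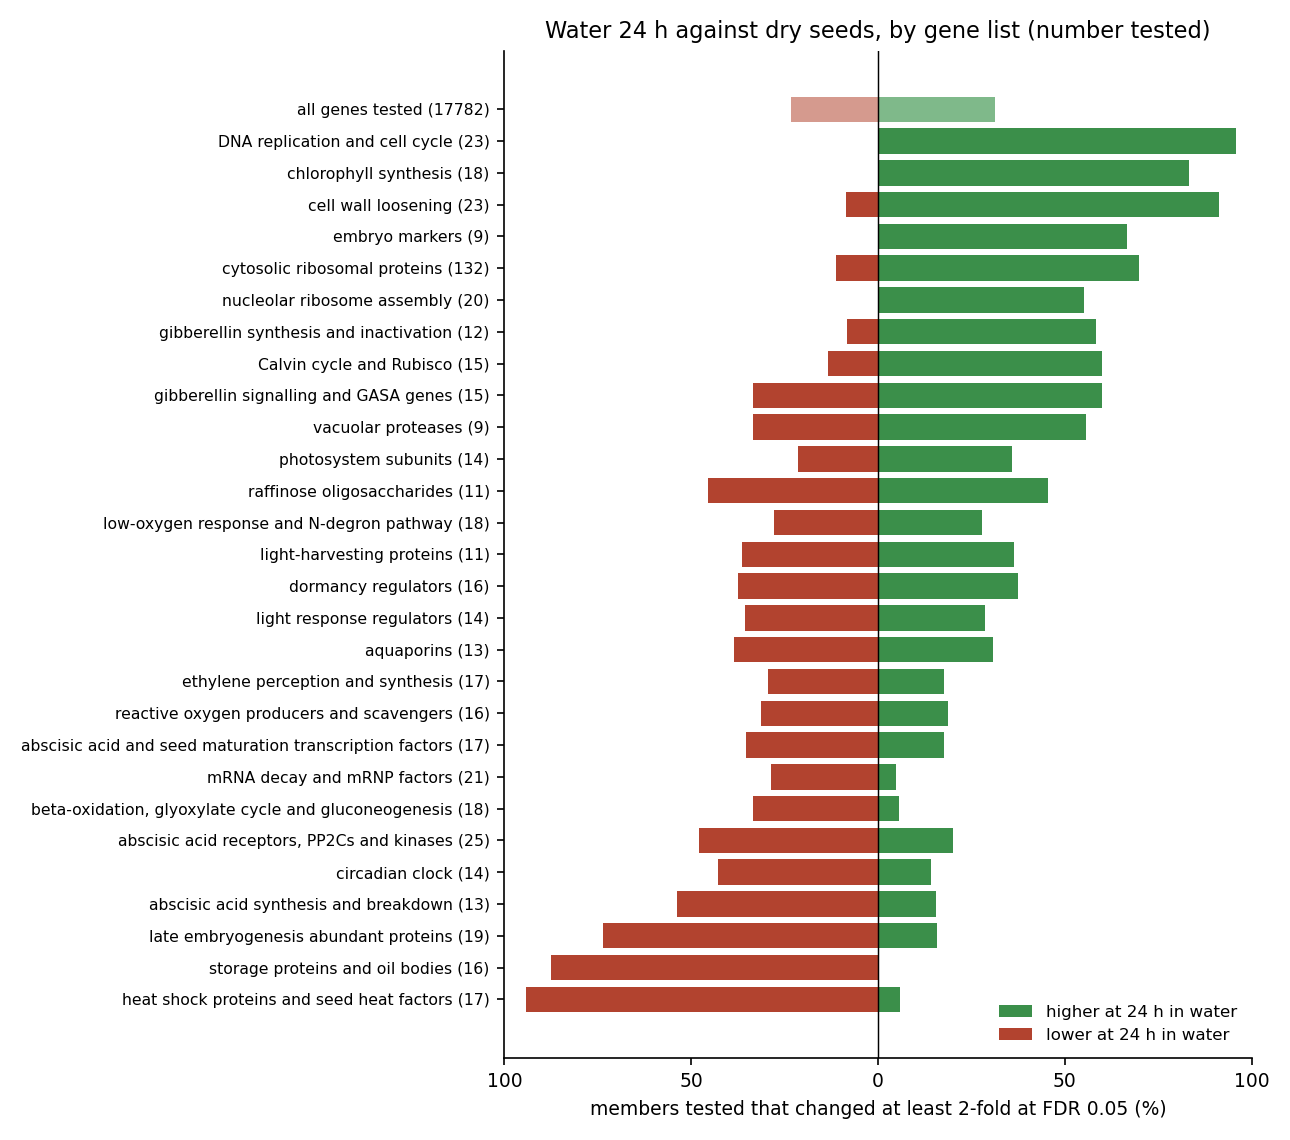
Share of the tested members of each gene list (%) that were at least 2-fold higher in water 24 h than in dry seeds (to the right of 0) or at least 2-fold lower (to the left), at a false discovery rate of 0.05, with the number tested in brackets; the pale bars at the top are all 17782 genes, of which 31.3% were higher and 23.3% lower. Storage, LEA and heat shock lists stand at the lower end, and cell wall, chlorophyll and DNA replication lists at the upper end.

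Of 8141 tested genes under the dry minimum, 4498 were called at least 2-fold higher, 954 at least 2-fold lower, and 1801 reached 10 CPM in water 24 h. Among all genes tested, 31.3% were at least 2-fold higher and 23.3% at least 2-fold lower. The set was chosen for a low dry level, and genes near 0 in dry seeds passed the filter only through water libraries. Both favour higher calls, so these counts are a description. By the naming rule the 10 largest increases all lay under the dry minimum. FHL, a phytochrome A import factor, had 35.3, 28.3 and 32.96 CPM in water 24 h and 0 reads in dry seeds, at least 339-fold higher. AGP9, an arabinogalactan protein, and MAP65-2, a microtubule-associated protein, were at least 331-fold and 303-fold higher, also from 0 reads. NTL8, UMAMIT30, THE1 and BEE2 were at least 217-, 103-, 84.6- and 72.5-fold higher by the same floor of 3 reads. AGP31 had 3011 reads in water 24 h and 2 in dry seeds, and scpl44 2149 and 1, with ratios whose lower counting limits were 221 and 204. The list ends with XTH15, a cell wall enzyme described next.

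Cell wall loosening genes on the list were higher in 21 of 23 tested, all 21 at least 2-fold, beside 31.3% of all genes, with a median log2 change of 7.59. Of the 23, 22 lay under the dry minimum. Those near 0 in dry seeds passed the filter on low counts only through water libraries, so the count and the median are a description. The list does not cover these gene families in full. XTH25, a xyloglucan transglycosylase, and MAN1, an endo-beta-mannanase, are not on it and were lost, as given above. EXPA2, an expansin tied to germination, had 72.4, 96.2 and 64.3 CPM in water 24 h, against 0.371, 0 and 0 CPM in dry seeds. XTH15, a xyloglucan transglycosylase, had 117, 132 and 102 CPM in water 24 h, against 0.279, 0.0928 and 0 CPM in dry seeds, and XTH4 was at least 115-fold higher from 0 dry reads. MAN7, an endosperm mannanase, had 52.4, 52.5 and 46.6 CPM in water 24 h, against 3.44, 4.45 and 2.66 CPM in dry seeds, while MAN5 and MAN6 were lower, with log2 changes of -1.48 and -1.73; MAN6 was no longer called with library size alone (-0.68) or unstranded counts (-0.13).

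All 23 tested genes of DNA replication and the cell cycle were called higher, 22 at least 2-fold, beside 46.8% and 31.3% of all genes, with a median of 3.06. Of the 23, 21 lay under the dry minimum. Those near 0 in dry seeds passed the filter on low counts only through water libraries, which favours higher calls. The count and the median are thus a description. PCNA1, the replication clamp, had 5.102, 5.19 and 4.18 CPM in water 24 h, against 0.279, 0 and 0 CPM in dry seeds. MCM3 of the replicative helicase was at least 65.8-fold higher from 0 dry reads and the cyclin CYCD3;1 at least 22.8-fold, although 35.5% of the water 24 h reads at CYCD3;1 lay on the opposite strand. The levels stayed low, with all but TSO2, RNR1, CYCD2;1, CYCD3;2, CYCD3;3 and PCNA2 under 10 CPM in water 24 h.

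Ribosome genes were mostly higher. Cytosolic ribosomal protein genes were picked by their product names, and of 146 of them 132 were tested. Of these, 104 were called higher and 23 lower, beside 46.8% and 39.9% of all genes, and 77 belonged to the 1070 raised dry-seed mRNAs. The median change was 1.90. The names alone do not show that each is a cytosolic ribosomal protein. HLL, of an L14p/L23e family, was among those higher, and AT1G17080 and AT3G14595, of an L18ae family, among those lower. Their sum was 29298, 29517 and 27837 CPM in water 24 h, against 8082, 7920.1 and 8513 CPM in dry seeds. Of 20 nucleolar assembly genes 18 were higher and 1, the BRX1-type AT3G15460, lower, at -0.31, which turned to 0.75 with library size alone. NAP57, the pseudouridine synthase, had 583, 584 and 543 CPM in water 24 h, against 47.5, 43.8 and 56.7 CPM in dry seeds, FIB2, a fibrillarin, 136, 143 and 139.98 CPM in water 24 h against 3.901, 4.45 and 6.36 CPM in dry seeds, and NUC1, a nucleolin, 1209, 1242 and 1211 CPM in water 24 h against 454, 416 and 521 CPM in dry seeds.

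Genes of reserve use split. Among 18 tested genes that serve beta-oxidation, gluconeogenesis and the glyoxylate cycle, 7 were higher and 10 lower, beside 46.8% and 39.9% of all genes. Their median of -0.27 turned to 0.79 with library size alone (11 higher and 5 lower). Of the 17 dry-seed mRNAs among them, 4 were steady, 2 kept after another course, 5 undecided and 6 lost, while 48.7% of all dry-seed mRNAs were kept and 33.1% lost. ICL, isocitrate lyase, had 13065, 14402 and 13434 CPM in water 24 h, against 6926, 6231 and 8286 CPM in dry seeds, a change of 0.93 ± 0.089 whose interval crossed 2-fold. PCK1, of gluconeogenesis, was undecided too, at 1994 CPM in water 24 h and 1099 CPM in dry seeds. ACX1 and AIM1 of beta-oxidation were lost, with 108 and 150.01 CPM in water 24 h, against 458 and 575 CPM in dry seeds. The seed vacuolar aquaporins TIP3;1 and BETA-TIP were lost, with changes of -2.55 and -3.16.

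Low-oxygen, sugar and light genes gave further losses among mixed lists, while 46.8% of all genes were called higher and 39.9% lower. ADH1, alcohol dehydrogenase, had 43.6, 43.8 and 47.6 CPM in water 24 h, against 1425, 1293 and 1452 CPM in dry seeds, and PDC2, pyruvate decarboxylase, 62.99, 62.5 and 67.6 CPM in water 24 h against 791, 757 and 833 CPM in dry seeds; the list had 6 higher and 10 lower of 18, and 11 higher and 4 lower with library size alone, where its median of -0.67 turned to 0.396. RAP2.12, RAP2.3 and PRT6 were steady. GOLS2 and MIPS2, of raffinose and inositol synthesis, had 80.04 and 37.2 CPM in water 24 h, against 2309.5 and 2185 CPM in dry seeds, whereas DIN10, a raffinose synthase family protein, had 94.2 CPM in water 24 h against 0.405 CPM in dry seeds. PHYA, the phytochrome of the very low light response, was raised (915, 1004 and 974 CPM in water 24 h, 75.1, 86.4 and 87.02 CPM in dry seeds). HY5 was lost (1.33 CPM in water 24 h, 27.2 CPM in dry seeds), and ELIP1, a stress protein related to light-harvesting proteins, had 3 reads in water 24 h and 1514 in dry seeds (ratio 0.00105, interval 2.17e-04 to 0.00308).

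The remaining lists showed no single direction, and among all genes 46.8% were called higher and 39.9% lower. Of the clock genes 4 were higher and 9 lower of 14 tested, with a median of -0.75 that turned to 0.31 with library size alone (8 higher and 4 lower); ELF4 fell to 2.92 CPM in water 24 h, against 65.1 CPM in dry seeds, and TOC1 and ELF3 were steady. The reactive oxygen list had 6 higher and 8 lower of 16, and 11 higher and 5 lower with library size alone, where its median of -0.12 turned to 0.95, with CAT1 lost (50.3 CPM in water 24 h, 352 CPM in dry seeds) and APX1 higher (39.8 CPM in water 24 h, 1.495 CPM in dry seeds). Vacuolar proteases had 5 higher and 4 lower of 9, DELTA-VPE at 48.3 CPM in water 24 h and 0.344 CPM in dry seeds and GAMMA-VPE at 35.5 CPM in water 24 h and 235 CPM in dry seeds. Aquaporins had 5 higher and 8 lower of 13, and 7 higher and 5 lower with library size alone, where their median of -0.74 turned to 0.33. For the smallest lists the counts higher and lower were, for jasmonate synthesis 2 and 2 of 5, Aux/IAA repressors 3 and 3 of 6 and type-A response regulators 1 and 1 of 3.

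Part of the results for light-harvesting genes rests on 1 library. Of 21 members 11 passed the filter on low counts. With all libraries 4 were called higher, 4 lower and 3 neither, beside 46.8% higher and 39.9% lower of all genes, with a median of 0.42. Without replicate 3 of water 24 h, 2 were called higher and 7 lower, and the median was -1.16. Summed over all 21 members, the water 24 h libraries held 113, 119 and 658 CPM, against 340, 321 and 368 CPM in dry seeds, so that replicate 3 lay above the dry libraries and the other 2 below.

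The 13 genes that set replicate 3 apart, by a rule chosen after the data were seen, include those of the major antenna proteins, with GAPA-2, PSBP-2 and UBQ13 beside the 10 light-harvesting genes. LHCB1.5 had 0.142, 1.56 and 157 CPM in water 24 h, against 0.464, 0.186 and 1.04 CPM in dry seeds, and its log2 change of 6.59 became 0.80 without replicate 3 (adjusted p = 0.212, edgeR's quasi-likelihood test). LHCB5 had 0.709, 1.298 and 42.4 CPM in water 24 h, against 8.45, 8.91 and 10.4 CPM in dry seeds; its log2 change was 0.77 and not called with all libraries, and -3.12 without replicate 3 (adjusted p = 1.31e-12, edgeR's quasi-likelihood test). LHCB1.3 had a log2 change of 3.61 with all libraries and of 0.64, not called, without replicate 3. LHCB1.2, not tested, had 2, 22 and 2515 reads in water 24 h, against 1, 0 and 3 in dry seeds. Counts of the near-identical LHCB1 copies are uncertain.

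LHCB4.1, LHCB4.2, LHCB4.3, LHCA5, LHCB7 and LHCA2 kept their calls and directions without replicate 3. LHCA2, which is also among the genes that set replicate 3 apart, was called higher both times. Its log2 change fell from 4.55 with all libraries to 2.075 without replicate 3. LHCB4.1, a minor antenna protein, had 75.3, 72.8 and 76.6 CPM in water 24 h, against 221, 204 and 234 CPM in dry seeds, a change of -1.55 ± 0.061. LHCB4.2, LHCA5 and LHCB7 were lower too, with log2 changes of -2.07, -1.17 and -2.897, that of LHCA5 no longer called with library size alone (-0.11), and LHCB4.3 was higher by 1.198. Of the dry-seed mRNAs on this list, which were these 4 lower ones, all 4 were lost and none was kept or regained.

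**Figure D4:**
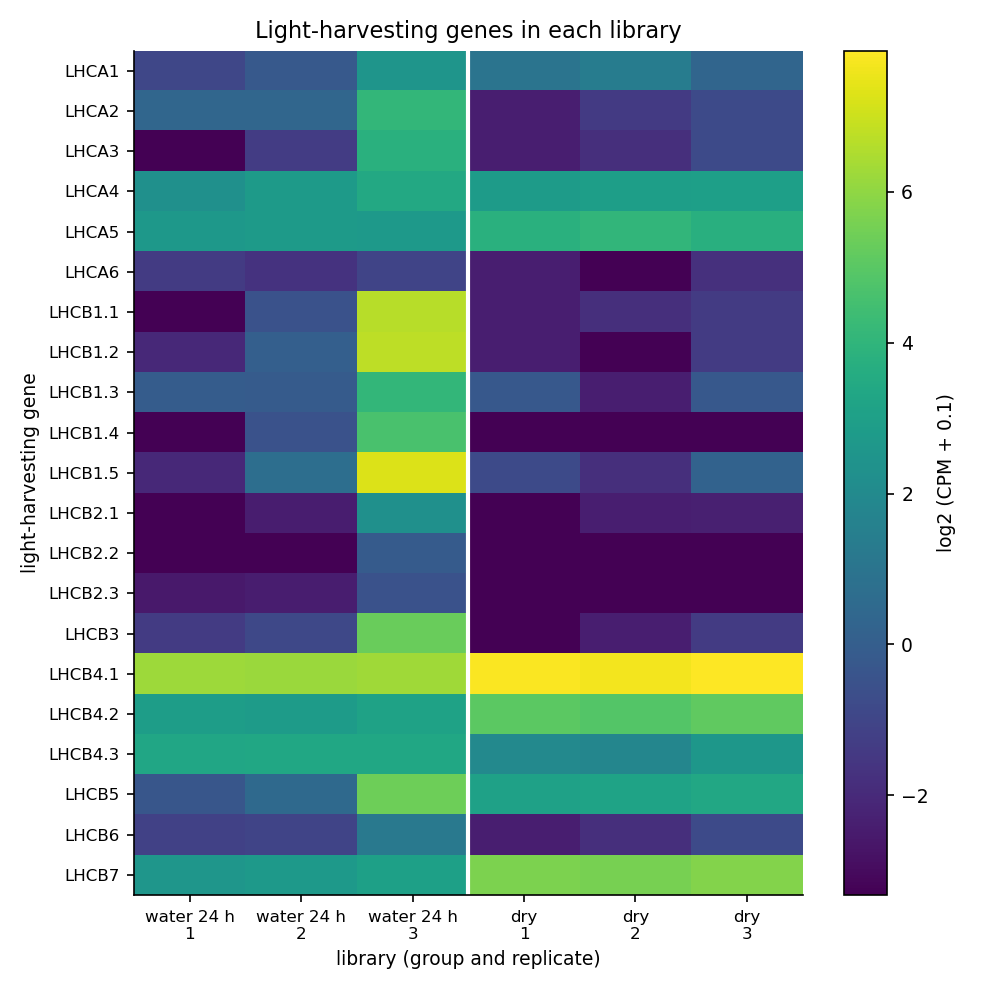
Level of the 21 light-harvesting genes (rows) in each of the 6 libraries (columns, water 24 h at the left of the white line and dry seeds at its right), coloured by log2 (CPM + 0.1). Replicate 3 of water 24 h is bright for LHCB1 genes, LHCB3 and LHCB5 that are dark in the other 2 water libraries, whereas LHCB4.1 had 75.3, 72.8 and 76.6 CPM in the 3 water libraries.

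Members of the other green-tissue lists also differed in that library. RCA, Rubisco activase, had 33.02, 36.1 and 119.99 CPM in water 24 h, and GAPA 15.7, 15.1 and 34.8 CPM, both highest in replicate 3, while RBCS1A, a small subunit of Rubisco, had 372, 382 and 386 CPM. Without replicate 3 the log2 change of RCA fell from 3.52 to 2.63 and that of GAPA from 1.33 to 0.79. GAPA-2 was not called with all libraries (0.55) and was called lower without replicate 3 (-1.18). Calvin cycle and Rubisco genes were higher in 11 and lower in 3 of 15 tested, beside 46.8% and 39.9% of all genes. Without replicate 3 they were higher in 11 and lower in 4, and the medians were 2.226 with it and 2.196 without. Of the 15, 10 lay under the dry minimum. RBCS1A was a raised mRNA, against 11.9, 15.03 and 14.9 CPM in dry seeds, and FBA1 and PGK1 were regained. Photosystem subunits had 9 higher and 3 lower of 14, and 8 and 3 of 15 without replicate 3, with medians of 0.699 and 0.351. Of the 14, 10 lay under the dry minimum. PSAH1, a photosystem I subunit, had 2.91, 3.07 and 12.9 CPM in water 24 h, against 3.81, 2.69 and 3.42 CPM in dry seeds. It was called higher with all libraries (0.99) and had a change of -0.14 that was not called without replicate 3. Of 18 genes of chlorophyll synthesis 16 were higher and 1, HEMA2, lower both with and without replicate 3. HEMA2 turned to 0.31 with library size alone. Of the 18, 13 lay under the dry minimum. In these 3 lists, genes near 0 in dry seeds passed the filter only through water libraries, which favours higher calls. PORB, a light-dependent chlorophyll enzyme, had 1356 reads in water 24 h and 2 in dry seeds (ratio 359.9, interval 99.4 to 2974), and PORA 76 and 0, at least 13.4-fold higher. The source of the reads that set replicate 3 apart was not tested.

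Gene structure, which the classes did not use, differed between them. The median transcript length was 1978 bases for steady, 1914 for raised, 1727 for regained and 1597 for lost mRNAs, beside 1804 for all dry-seed mRNAs and 1771 for all genes tested. Genes with a single exon made up 5.46% of steady, 6.32% of raised, 7.69% of regained and 16.2% of lost mRNAs, beside 9.78% of dry-seed mRNAs. The median number of exons was 7 for steady, 6 for raised and for regained and 4 for lost mRNAs. Dry levels differed between these classes too, and no test was made of the differences.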

How the data were processed

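Poly(A) RNA of seeds was sequenced, and the authors deposited a table of read counts per gene for each library, made with STAR on TAIR10 per the submitters' processing notes, whose versions are not given in the sources used here. Each table holds 3 strand columns; the reverse-strand counts were used, and 4 summary lines (unmapped 0.297 to 2.04% of reads, multimapping 1.59 to 2.47%, no feature 1.73 to 2.78%, ambiguous 0.0776 to 0.137%) were left out. Reads of near-identical genes may be missing or split. Genes were named from RefSeq TAIR10.1 by locus ID, which matched 37051 of 37336.

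The 12 dry and water libraries were fitted together with edgeR 4.0.16 (R 4.3.3; filterByExpr with a minimum count of 10 and total of 15; TMM scaling; 2-sided quasi-likelihood test, Benjamini-Hochberg adjustment over 17782 genes, false discovery rate 0.05). The script was tested on simulated data. CPM are TMM-scaled, SE is the log2 change over the root of F, and ± after a mean is SD over 3 libraries. Ratios for genes with 1 to 3 reads in a group have exact 95% intervals, and a group at 0 reads is set at 3. Total depth of the 6 compared libraries was 12154732 to 20521092 reads, and intervals cover counting error only.

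Members and lists were chosen with earlier results of these data known. Named genes are the 10 largest called increases and decreases with a symbol, a mean log2 CPM of at least 1 and groups that did not overlap, the 12 highest in dry seeds, the 8 highest steady and regained ones, up to 2 called members of each list in each direction, and a fixed set of known seed genes; further list members were named after their values were seen. Upstream windows of 250 bases came from RefSeq TAIR10.1. Alternatives were other scaling, DESeq2 1.42.0, no filter, 6 libraries alone, a replicate block, unstranded counts, a stricter rate, other class limits and leaving out each library.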

Additional observations from a re-analysis of the deposited data

Results flagged for a closer look

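Reads on the strand opposite to the gene, which the comparisons did not use, were tested for 218 list genes that had enough of them, in a fit of 4889 genes. For 7 of these genes such reads made up over 30% of the water 24 h reads and were called at least 2-fold higher in water 24 h than in dry seeds by edgeR's quasi-likelihood test; the limit of 30% was chosen after the data were seen. At CYCD3;1 there were 71 opposite-strand reads in the 3 water 24 h libraries and 5 in the dry ones (log2 change 3.34), at HRE1 112 and 22 (1.92), and at PEI1 160 and 41 (1.55). At LHCA3 there were 200 and 55 (1.46), at PORC 338 and 101 (1.34), at TT12 159 and 48 (1.34, with 0 reads on the gene's own strand) and at AOC4 346 and 129 (1.04). At HRE1 and PEI1 the reads on the gene's own strand went the other way, with 195 and 143 in water 24 h against 286 and 266 in dry seeds. The source of the opposite-strand reads was not tested.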

How the results depend on the processing

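With library size alone, 12954 genes were higher and 3291 lower (9825 and 1854 at least 2-fold), 1195 dry-seed mRNAs were lost, 2525 raised and 253 regained, and 7 light-harvesting genes were higher; of the kept mRNAs 1671 (35.6%) and of the regained 50 (10.7%) were shared with TMM scaling. Named genes that reversed under it, with their log2 changes there, were HEMA2 (0.31), APA1 (0.23), DYL1 (0.26), DI19 (0.70), DAA1 (0.99), TPX1 (0.93), NCED9 (0.53), MPK17 (0.35), KAO2 (0.51), DJ1A (0.22), AT3G15460 (0.75), RAP2.3 (0.95), LHCA4 (1.05), ATML1 (0.70), VEP1 (0.65), CRU3 (0.42), SSR16 (0.54), MLS (0.84), CBSX3 (0.47), AOS (0.69) and CLPC1 (0.57). LHCA4 also changed sign with no filter (0.0426), in the fit of 6 libraries (0.0137), without water 24 h replicate 1 (0.19) or 2 (0.09) and without dry replicate 2 (0.0069) or 3 (0.03), and was -0.37 and called without water 24 h replicate 3. LHCA1 ranged over -1.52 to 0.89 and LHCB5 over -3.12 to 1.34 as libraries were left out, both negative without water 24 h replicate 3. A dry minimum of 50 CPM gave 1555 kept, 211 regained, 1956 lost and 229 raised, and a band of 1.5-fold gave 2599 kept and 200 regained, since fewer genes can enter. Light-harvesting genes called higher numbered 14 with no filter and 1 with DESeq2. Leaving out each library in turn gave 8207 to 8328 higher, 6956 to 7109 lower, 5583 to 5722 and 4150 to 4284 at least 2-fold, 4577 to 4720 kept, 445 to 475 regained, 3161 to 3234 lost, 1051 to 1105 raised and 2 to 7 light-harvesting genes higher. Same-numbered replicates of water 24 h and dry seeds did not deviate together (correlations 0.03, -0.04 and -0.05). With 3 libraries per group this cannot show whether the numbers pair the samples. With a replicate block 4677 (99.7%) of the kept and 465 (99.6%) of the regained mRNAs were shared, and 54.0% of calls were higher. The fit of 6 libraries gives no regained count. Of 2319 values of named genes under 13 settings, 2256 kept direction and side of the threshold, 28 were weaker, 6 stronger and 29 reversed; the causes were not tested. Low counts limit genes near 0 in dry seeds.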
